A study of Mus musculus with 9 samples.

Results

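Of the 16251 H3K4me3 peaks of mouse periosteal stem and progenitor cells, 2304 lay on an autosome and more than 10 kb from the nearest annotated transcription start site (TSS). Of these distal peaks, 798 shared at least 1 bp with a KLF4 site and no bp with a PLAGL1 peak, and they are described here. They made up 34.6% of the distal peaks (Wilson 95% interval 32.7% to 36.6%, which covers counting error only). A further 213 distal peaks overlapped PLAGL1, 184 of them with KLF4 as well, and 1293 overlapped neither factor. At the distance threshold, the nearest peaks inside were those of Cabp1 (10047 bp, score 47), Rnf19b and B4galt5 (both 10088 bp, scores 105 and 62). The nearest peaks outside were those of Ier5l (9982 bp, score 129), Blvra (9973 bp, score 45) and Cln6 (9960 bp, score 102).

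H3K4me3 is a histone mark of active and poised promoters, and at sites far from annotated starts it is found at unannotated or alternative promoters and at some strongly active enhancers. KLF4, of the Krüppel-like family, binds GC-rich CACCC-type elements at promoters and enhancers. PLAGL1 is an imprinted zinc-finger factor. In bone the periosteum is the membrane that supplies progenitors for growth and repair.

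The cells came from the mandibular angle of mice aged 8 weeks and had 3 days of osteogenic induction, with dexamethasone at 1e-07 M, beta-glycerophosphate at 5 mM and ascorbic acid at 50 µg/ml. CUT&Tag, in which an antibody brings a transposase to its target so that nearby DNA is cut out and sequenced, was run on the same number of cells for every library. KLF4 with a FLAG tag was profiled in 3 libraries of Ctsk-iCre;Plagl1fl/fl cells and 3 libraries of Plagl1fl/fl cells, all infected with a KLF4-expressing lentivirus at a multiplicity of 10. The Cre is driven from Ctsk, so deletion of Plagl1 reaches the cells that have used that promoter. PLAGL1 with an HA tag and its IgG control had 1 library each, in Plagl1fl/fl cells given a Plagl1 lentivirus, and H3K4me3 had 1 library, in Plagl1fl/fl cells whose label names no virus. Both factors were therefore overexpressed tagged proteins, and the H3K4me3 map comes from cells without them. Each of the 6 KLF4 treatment labels carries another vector name, Klf4 up to Klf9, although every title gives KLF4, and groups here go by title. Whether libraries came from separate animals is not said, so the p-values measure only the spread between these libraries, which may be technical.

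As a check of the cell type, H3K4me3 peaks stood within 3 kb of the TSS of all 11 mesenchymal and periosteal markers examined, among them Prrx1, Pdgfra, Runx2 and Sp7, with scores of 108 to 898. All 5 macrophage markers were also marked, with scores of 137 to 276, as was 1 of 4 endothelial markers (Kdr, 179). None of 4 skeletal muscle, 4 epithelial or 4 neuron and Schwann cell markers was marked. The longer gene lists used below had TSS peaks at 14 of 15 macrophage, 6 of 12 endothelial and 5 of 10 neuron and Schwann cell genes. They had such peaks at 0 of 10 skeletal muscle and 0 of 11 epithelial genes. None of the 5 macrophage markers was the nearest gene of any of the 798 peaks. The 11 mesenchymal and periosteal markers had 1 such peak. The part of macrophages in the distal peaks was not tested.

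A set of these peaks lay upstream of microRNA genes, whose annotated start is that of the short hairpin although the primary transcript can begin far upstream. Of the 798 peaks, 39 had 1 of 35 microRNA genes as the nearest gene, and 23 of the 39 lay upstream of it. Mature sequences from RefSeq (GRCm38.p6) were matched for 31 of the 35 genes, and no seed was shared among these 31. Mir30d was among the genes without a matched sequence, so its seed was not compared. The microRNAs described next are shown here 5′ to 3′, with the seed, bases 2 to 8, in capitals.
mmu-miR-34a-5p: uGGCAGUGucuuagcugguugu
mmu-miR-30a-5p: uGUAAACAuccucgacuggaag
mmu-miR-15a-5p: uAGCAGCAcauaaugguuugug
mmu-miR-146a-5p: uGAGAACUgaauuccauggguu
mmu-miR-29b-3p: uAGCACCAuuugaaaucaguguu
mmu-miR-140-3p: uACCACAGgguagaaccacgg
mmu-miR-181c-5p: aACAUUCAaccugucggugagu

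Mir34a, a target of p53, had the strongest of these peaks. It lay at chr4:150132380-150134346 (mm39), 19548 bp upstream of the hairpin, on an annotated CpG island, with a score of 1321 and a width of 1967 bp. The peak of Mir30a had a score of 1172 at chr1:23295165-23296471, 15532 bp upstream, and that of Mir30d, a gene of the same microRNA family, had 598 at 21350 bp upstream. Both were on annotated CpG islands, which made 10 of the 39 peaks. Mir15a, known for repression of BCL2 and cyclin genes, had a peak of score 707 at 16219 bp upstream, in the first intron of the long non-coding RNA gene Dleu2.

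Weaker peaks stood upstream of other well-studied microRNAs. Mir146, which encodes miR-146a, a brake on innate immune signalling, had a peak of score 340 at 10894 bp upstream. Mir29b-1, whose product represses collagen messages, had a peak of score 176 in an intron of Lncpint, 63043 bp upstream. Mir140, a cartilage-enriched microRNA hosted by the ubiquitin ligase gene Wwp2, had a peak of score 121 in an intron of its host, 47614 bp upstream. Mir181c had a weak H3K4me3 peak (score 95) with one of the highest KLF4 signals of all 798 peaks, 8.05 mean log2 CPM (read counts scaled to library size) over the 6 KLF4 libraries. Across the 39 peaks the score ran from 21 to 1321 with a median of 137. MicroRNA genes were nearest to 4.89% of the 798 peaks and to 4.18% of the 1293 distal peaks without either factor, with overlapping intervals (3.60% to 6.61% and 3.21% to 5.41%).

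The H3K4me3 peaks with KLF4 ranged from faint to promoter-like. The score, the authors' own value for a peak, ran from 21 to 1725, with a median of 92.5 and quartiles of 52 and 254.5. The distal peaks without KLF4 had a median of 70 (46 and 137), and the promoter peaks with KLF4, within 3 kb of a TSS and without PLAGL1, had a median of 977 (649 and 1273). A score over 500 was reached by 109 of the 798 peaks with KLF4 (13.7%) and by 53 of the 1293 without (4.10%). The median of promoter peaks with KLF4 was exceeded by 33 distal peaks with KLF4 (4.14%) and by 3 without (0.23%). At the low end, 53.3% of the peaks with KLF4 and 65.4% of those without had a score of 100 or less. All of these values come from 1 H3K4me3 library, so the difference has no replicate check and is a description.

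**Figure D1:**
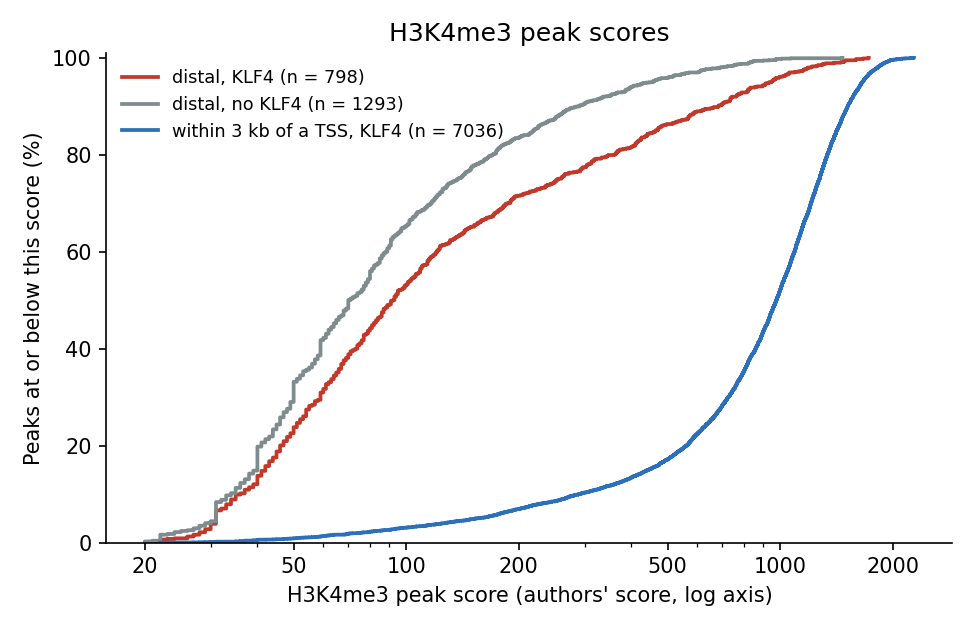
Cumulative share of peaks (y axis, %) at or below each H3K4me3 score (x axis, log scale) for 798 distal peaks with KLF4, 1293 distal peaks without KLF4 and 7036 peaks with KLF4 within 3 kb of a TSS. The curve of the distal peaks with KLF4 lies right of that of the distal peaks without it, with medians of 92.5 and 70, and far left of the promoter curve, with a median of 977.

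Score and width went together (Spearman's rank correlation 0.75 across the 798 peaks, as a description), and the peaks with KLF4 were wider, with a median of 570.5 bp against 455 bp without KLF4. A wider peak has more room to overlap a site, so scores were also set side by side within 3 classes of distal peak width. In the narrowest class the medians were 50 with KLF4 and 47 without, and in the middle class 73.5 and 70. In the widest class they were 315.5 with KLF4 (interval of the median 265 to 394) and 193 without (175 to 222). The gap in score was therefore found mainly among the widest peaks.

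By annotation, 123 of the 798 peaks (15.4%, interval 13.1% to 18.1%) were on a CpG island, 312 (39.1%) were intergenic, 252 (31.6%) intronic, 74 (9.27%) in a repeat, and 37 (4.64%) in an exon, a UTR or at a transcript end. Among distal peaks without either factor, 142 of 1293 (interval 9.39% to 12.8%) were on a CpG island, 38.9% intergenic, 32.3% intronic and 12.5% in a repeat. The CpG island peaks were the strong ones, with a median score of 447 and a median width of 1019 bp, against 170 and 745 bp for CpG island peaks without KLF4. Intronic peaks had a median of 65.5 and intergenic peaks of 87.5. Of the 109 peaks with a score over 500, 53 (48.6%) were on a CpG island, and of the 425 with a score of 100 or less, 13 (3.06%) were.

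Read the other way, 46.4% of CpG island distal peaks without PLAGL1 had a KLF4 site (interval 40.5% to 52.4%), against 38.3% of intergenic (35.0% to 41.7%), 37.7% of intronic (34.1% to 41.4%) and 31.4% of repeat peaks (25.8% to 37.5%). This depended on width. With distal peaks cut by width into 4 classes of like size, in the widest 57.2% of CpG island peaks (87 of 152, 49.3% to 64.8%) and 43.6% of other peaks (38.7% to 48.7%) had KLF4. In the 3 narrower classes the CpG island share lay between 27.6% and 34.9% and the share of other peaks between 32.5% and 40.9%. At peaks within 3 kb of a TSS without PLAGL1 the share with KLF4 was 62.1%.

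**Figure D2:**
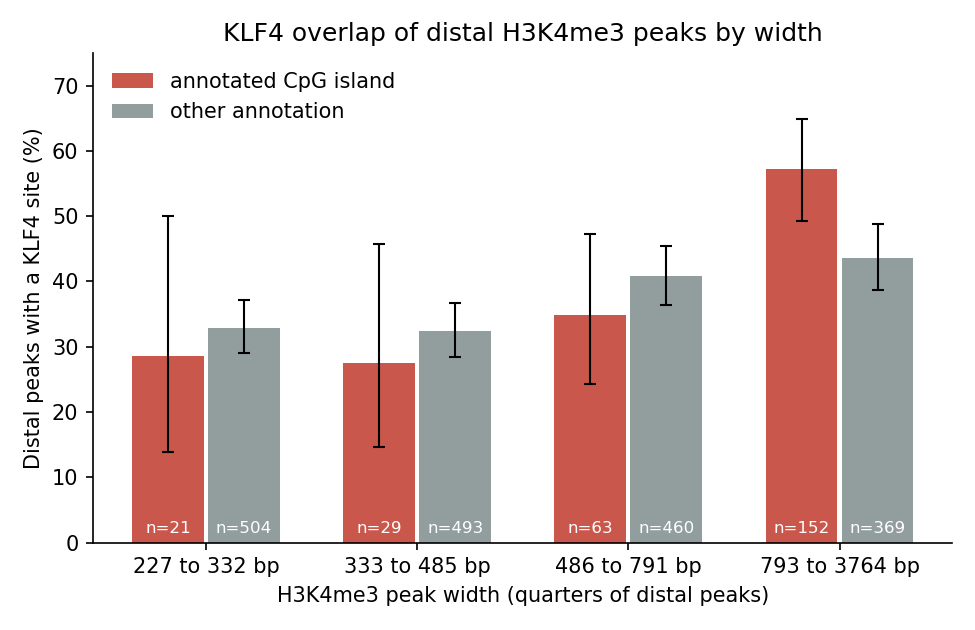
Share of distal H3K4me3 peaks without PLAGL1 that overlap a KLF4 site (y axis, %), in 4 classes of peak width (x axis, bp), for peaks annotated as CpG islands and for other peaks; error bars are Wilson 95% intervals and n is the number of peaks. The highest bar is that of the widest CpG island peaks, at 57.2%, while narrower CpG island peaks lie at or below 34.9%.

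Most of the peaks were at moderate distances, with a median of 26533 bp, and 77.6% were within 50 kb of the TSS while 8.02% were over 100 kb away. Upstream positions made up 45.2% of the 798 peaks with KLF4 and 44.9% of the 1293 without. Of the 310 peaks annotated to an intron, 114 (36.8%, interval 31.6% to 42.3%) were in the first intron, against 29.9% (153 of 512) of intronic peaks without KLF4. Few of the peaks had a close neighbour, as was so for the other distal peaks. Another H3K4me3 peak stood within 5 kb of 7.02%, and another of the 798 peaks within 20 kb of 79 (9.90%). A PLAGL1 peak, which the choice of peaks kept out of the peak itself, stood within 10 kb of 9.65% (7.79% to 11.9%), against 5.34% (4.24% to 6.70%) of distal peaks without KLF4.

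The nearest gene was protein-coding for 81.5% and non-coding for 17.0% of the 798 peaks. An H3K4me3 peak annotated to the same gene, within 3 kb of its TSS, was present for 531 of the 796 peaks with a gene name (66.7%, 63.4% to 69.9%). A peak there that was annotated to another gene was not counted. The TSS peak carried KLF4 for 407 of the 531 (76.6%). For distal peaks without KLF4 these shares were 63.7% (61.1% to 66.3%) and 70.6%. Of the 798 peaks, 2 had no gene name, and the others fell to 734 genes, of which 44 had 2 peaks and 9 had 3. The 9 were Acot11, Lncppara, Mir6935, Potefam3b, Psd2, Rnf19b, Sertad2, Slc45a1 and Wasf2. At Wasf2, a regulator of actin branching, the peaks lay 34921, 22692 and 12479 bp upstream of the TSS, with scores of 401, 36 and 123, while the TSS peak had a score of 1305 and carried KLF4. At Sertad2, a transcriptional coregulator gene, a CpG island peak of score 832 lay 10857 bp upstream of the TSS, where the peak had a score of 1465, and the other distal peaks had scores of 76 and 43.

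Wasf2 is shown as a gene with 3 distal peaks and KLF4 at its TSS, and Jun as an AP-1 gene with a pair of such peaks and KLF4 at its TSS. Their promoters are shown with every match to CCNCNCCC, a KLF-type motif searched on both strands, in capitals. Each runs from 250 bases before to 50 after the start and comes from the build GRCm38.p6, whose coordinates differ from those of the mm39 peaks. The Wasf2 promoter (GRCm38.p6 chr4:133130383-133130682, plus strand) held 3 matches and the Jun promoter (GRCm38.p6 chr4:95052173-95052472, minus strand) held 9, several of which overlap.
Wasf2: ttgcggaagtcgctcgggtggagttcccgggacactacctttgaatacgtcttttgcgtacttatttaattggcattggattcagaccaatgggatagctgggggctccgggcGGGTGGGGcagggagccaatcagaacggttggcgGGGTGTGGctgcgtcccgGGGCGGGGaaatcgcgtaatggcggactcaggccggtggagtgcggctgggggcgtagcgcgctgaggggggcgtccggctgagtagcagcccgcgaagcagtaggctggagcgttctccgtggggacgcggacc
Jun: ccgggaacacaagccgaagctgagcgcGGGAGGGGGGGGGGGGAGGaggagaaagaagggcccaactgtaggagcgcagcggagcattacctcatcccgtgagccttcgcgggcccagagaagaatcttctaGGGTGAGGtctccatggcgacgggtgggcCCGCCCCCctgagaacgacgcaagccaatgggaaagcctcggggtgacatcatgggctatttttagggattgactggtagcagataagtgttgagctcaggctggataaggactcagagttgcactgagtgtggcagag
The motif was found in 75.5% of 408 promoters of genes that had both a distal peak of the 798 and KLF4 at the TSS, against 49.5% of all 32851 promoters of the table. GGGGCCCC, a PLAGL1-type motif, was found in 2.45% and 1.08%. These are matches of letters in GC-rich stretches and do not locate binding. The 408 promoters were chosen for KLF4 in an H3K4me3 peak at the TSS, and all promoters were not. Other promoters with KLF4 were not counted apart, so the contrast says nothing particular about genes with a distal peak. The sequence of the distal peaks themselves was not analysed here.

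The strongest distal peaks were promoter-like in height. The 12 with the highest scores ran from 1725 to 1295, and 10 of them were on annotated CpG islands. Potefam3e (score 1725, chr8:19834564-19835348) and Potefam3b (1597, chr8:20697745-20698526), members of a multigene family in which reads can match several copies, were among them. Mia3, which encodes an exporter of collagen from the endoplasmic reticulum, had a peak of score 1665 inside its own gene (chr1:183126294-183127601), 23959 bp from its TSS, where the peak had a score of 1744.

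Others among the 12 lay at 1700030C10Rik (1593), Zbtb42 (1494), the nuclear receptor coactivator gene Ncoa6 (1485), the cation transporter gene Slc47a1 (1480), Gm11437 (1453), the pancreatic elastase gene Cela3a (1392), Mir34a, Cggbp1 (1300) and Mier3 (1295). For 8 of the 12, no H3K4me3 peak within 3 kb of a TSS was annotated to the nearest gene. The 6 widest peaks were at the atypical cadherin gene Fat1 (3764 bp), the latrophilin gene Adgrl2 (3700 bp), Klf12 (3087 bp), Mir6417 (2944 bp), AU020206 (2806 bp) and Bicral (2645 bp), with scores of 244 to 787. Of these, AU020206 alone had an annotated TSS peak.

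KLF4 signal at the distal peaks was of the same order as at promoters. The 798 peaks held 806 KLF4 sites, 3.81% of the 21130 in the authors' deposited table, with 788 peaks holding 1 site, 9 holding 2 and 1 holding 3. In the authors' deposited table the mean log2 CPM of these sites had a median of 5.21 (quartiles 4.54 and 5.99), against 5.42 (4.78 and 6.12) for sites in promoter peaks without PLAGL1 and 4.73 (4.22 and 5.31) for sites outside H3K4me3 and PLAGL1 peaks. The median widths of these sites were 624.5, 695 and 484 bp in the same order, and log2 CPM is not scaled to site width. The part of site width in the signals was not tested. The height of the mark and of KLF4 did not go together: across the 798 peaks Spearman's rank correlation was 0.02, as a description of points that share 1 H3K4me3 and 6 KLF4 libraries. In 4 classes of H3K4me3 score, from low to high, the median KLF4 signal was 5.12, 5.31, 5.27 and 5.22 mean log2 CPM, while the share on CpG islands was 1.48%, 4.08%, 14.1% and 42.0%.

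**Figure D3:**
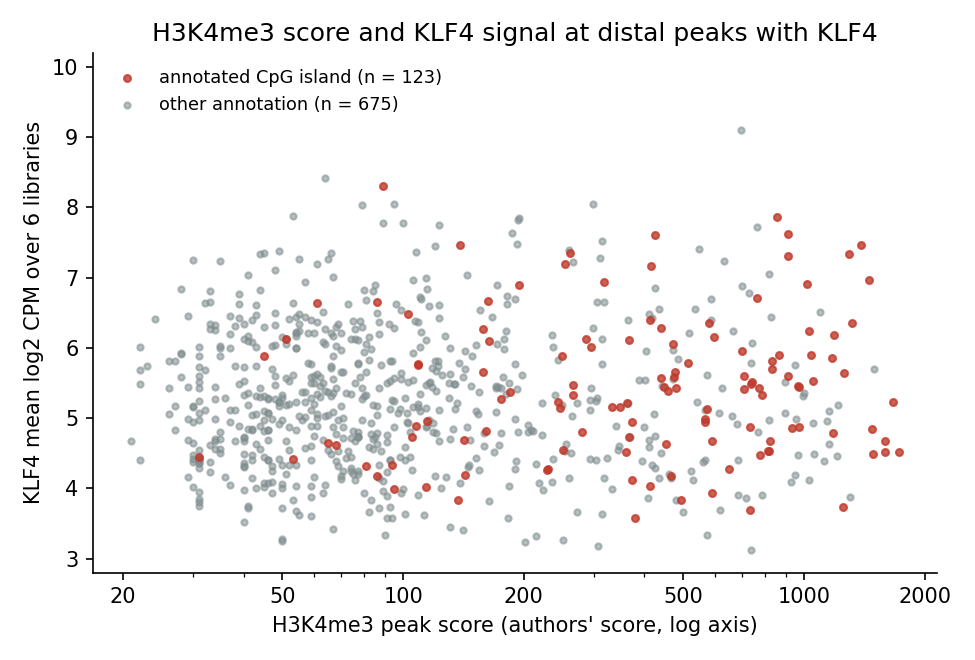
KLF4 mean log2 CPM over 6 libraries (y axis) against the H3K4me3 score (x axis, log scale) for each of the 798 distal peaks, using the strongest KLF4 site of each. The 123 CpG island peaks crowd to the right, at high scores, and span 3.57 to 8.31 mean log2 CPM of KLF4, within the spread of the others.

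The 10 peaks with the highest KLF4 signal therefore included faint H3K4me3 peaks. They were at Lrrc4c (9.10 mean log2 CPM, H3K4me3 score 698), the 14-3-3 sigma gene Sfn (8.42, score 64), Mir6951 (8.31, score 89), Armc12 (8.05, score 297), Mir181c, and the antiproliferative gene Btg2 (8.03, score 79). The remaining 4 were at Irf2bpl (7.87, score 53), the WNT ligand gene Wnt7b (7.87, score 855), Cdkn2aipnl (7.86, score 195) and the cyclin E1 gene Ccne1 (7.82, score 194). The first of these, at chr2:98496925-98497644, is annotated as the satellite repeat GSAT_MM. It was 1 of 6 peaks annotated to satellite or ribosomal RNA repeats, at Lrrc4c, 4933422A05Rik, Apbb1ip, Pex2, Filip1l and Axin2. Their median KLF4 signal was 6.95 mean log2 CPM, against 5.22 for the other 792. Reads from such repeats match many places, and their part in these values was not tested.

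Since the peaks were chosen for their overlap with KLF4, the position of the site within them is a description. The centre of the strongest site was inside the H3K4me3 peak for 690 of 798 distal peaks (86.5%) and for 97.1% of promoter peaks with KLF4. The median offset between the centres was 118 bp, against 246 bp at promoters. As a share of the peak width the offsets were alike, 20.8% at distal peaks and 19.5% at promoters. A median of 73.8% of the KLF4 site was inside the distal peak, and 7 peaks shared less than 100 bp with their site.

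**Figure D4:**
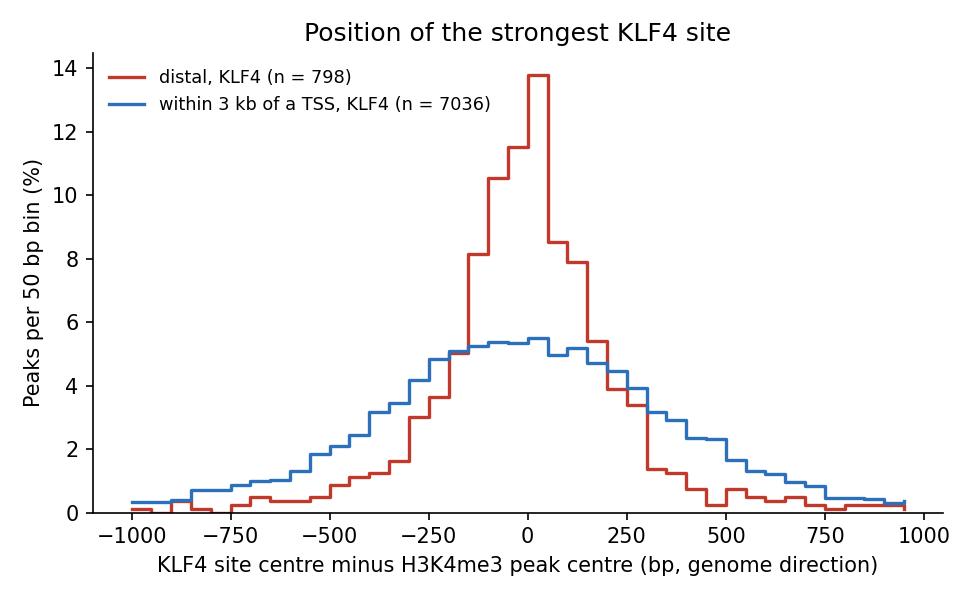
Distance in bp from the centre of the H3K4me3 peak to the centre of its strongest KLF4 site (x axis) as a share of peaks per 50 bp bin (y axis, %), for 798 distal peaks and 7036 promoter peaks with KLF4. The distal peaks form the narrower distribution around 0, with a median offset of 118 bp against 246 bp.

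Named gene groups differed in how many of their distal peaks carried KLF4. Over all distal peaks without PLAGL1 the share with KLF4 was 38.2% (798 of 2091), and each count is given beside it as a description, since lists of a few peaks allow no test here. The nearest gene is the authors' annotation and need not be the gene a peak acts on. Of 369 genes in 17 lists, 34 had at least 1 of the 798 peaks.

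Craniofacial and mesenchymal transcription factors had many distal H3K4me3 peaks and few with KLF4, 4 of 36 (11.1%). The 4 were at Nfia (score 964), Nr2f1 (465), the adipogenic and mesenchymal factor Ebf2 (318) and Twist1 (80). Distal peaks without KLF4 stood at 23 genes of this list, including the chromatin-associated homeobox factor Zfhx3 (755), Tbx15 (547), Nfia itself (482), Irx2 (438), Foxp1 (366), Six2 (175), Dlx2 (141) and Msx2 (114). The list of immediate early genes had 6 of 10 with KLF4. They were at Egr1 (score 247), Nr4a2 (109), Fosb (86), Btg2 (79) and Jun, a gene of the AP-1 dimer with a pair of peaks (70 and 54) that share 1 KLF4 site, 54097 and 53486 bp upstream.

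Matrix and adhesion genes had 5 of 6 distal peaks with KLF4, at the caveolar coat gene Cavin1 (155), the integrin subunit gene Itgb1 (122), the matricellular YAP target Ccn1 (71 and 42) and the collagenase gene Mmp14 (54). The actin and YAP-TEAD list had 6 of 12, at the focal adhesion gene Tns1 (682 and 535), Actb (265), the Hippo kinase gene Lats2 (178) and the TEAD factors Tead4 (84) and Tead1 (37). The KLF and SP list had 4 of 7, at Klf12 (364), Klf4 itself (230, on a CpG island 17513 bp from its TSS at chr4:55514792-55515133), Sp3 (85) and Klf10 (66). The Klf4 peak had a low KLF4 signal of 4.28 mean log2 CPM.

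The skeletal lists held small numbers of distal peaks. The osteoblast list had 1 of 4, in an intron of the parathyroid hormone receptor gene Pth1r (score 624, chr9:110538896-110539933). The periosteal list had 2 of 5, near Nes (345) and Axin2 (80), whose peak is a ribosomal RNA repeat by annotation. The chondrocyte list had 2 of 3, both at Trps1 (75 and 59), and the adipocyte list had 1 of 1, at Acacb (304). Of signalling lists, BMP and TGF-beta had 2 of 4, at the inhibitory SMAD genes Smad7 (133) and Smad6 (40). The WNT list had 3 of 6, at Wnt2b (88), Fzd1 (53) and Tcf7l1 (48). This count covers listed genes only: Wnt7b (score 855) was not in the WNT list, and Axin2 was counted in the periosteal list. The glucocorticoid list had 2 of 3, at Ddit4 (63) and Zbtb16 (31). The macrophage list had 0 of 4, the endothelial and epithelial lists 0 of 1 each, and no distal peak was assigned to the skeletal muscle or neuron lists.

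The KLF4 libraries of Ctsk-iCre;Plagl1fl/fl and Plagl1fl/fl cells were compared in the authors' deposited table, by edgeR per its name, with the p-value adjusted over all 21130 sites. The question set by the series title is a PLAGL1-KLF4-IRX5 axis. None of the 806 sites in distal peaks had an adjusted p under 0.05, where the background in the authors' deposited table was 10 of 21130 sites, or 0.0473% (0.0379% negative and 0.00947% positive). None had an adjusted p under 0.1 either, where the edgeR background of the authors' deposited table was 0.0615% (0.0426% negative and 0.0189% positive). At an unadjusted p under 0.05 there were 59 (7.32%), against 6.46% of all sites, 4.49% of sites in promoter peaks and 7.97% of sites outside H3K4me3 and PLAGL1 peaks. Of the 59, 35 had a negative log2 fold change and 24 a positive one, with backgrounds of 3.05% and 3.4% of all sites. The name of the authors' deposited table gives both groups without saying which is on top of the ratio, and signs are printed as deposited.

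The median log2 fold change of the 806 sites was -0.019 (interval of the median -0.038 to -0.0065), against -0.0098 for sites in promoter peaks, 0.026 for sites outside H3K4me3 and PLAGL1 peaks and 0.0013 for all sites of the authors' deposited table. The interval takes the sites as independent, although all share the same 6 libraries. It leaves out the spread between libraries and does not show a shift between the groups. Negative values made up 54.7% of the 806 and 49.7% of all sites. These shifts are small beside the error of a single site, whose approximate standard error had a median of 0.18. Of the 806 sites, 98.0% (790) were within 0.5 of 0 on the log2 scale of the authors' deposited table, against 95.9% of all sites.

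**Figure D5:**
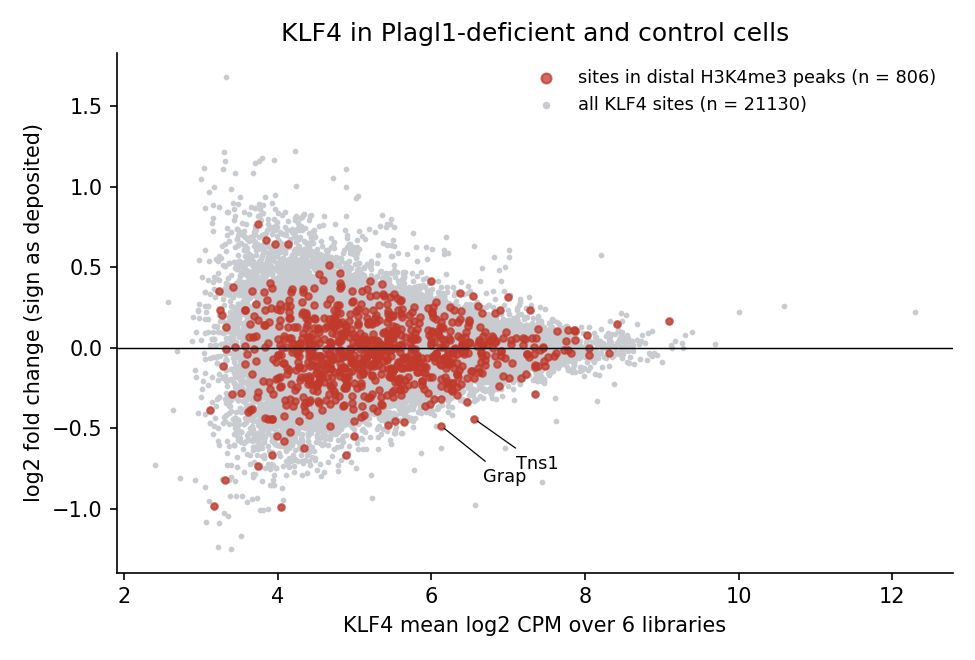
Log2 fold change of KLF4 between Plagl1-deficient and control cells (y axis, sign as deposited) against mean log2 CPM over the 6 libraries (x axis) for 806 sites in distal H3K4me3 peaks and all 21130 sites. The sites in distal peaks lie within the cloud of all sites, and the smallest p-values among them belong to Tns1 and Grap.

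The smallest p of the 806 belonged to a site in a Tns1 intron (chr1:74130677-74131962), which reached over the edge of the H3K4me3 peak of score 535, with 14.2% of the site inside it. It had a log2 fold change of -0.44 (approximate standard error 0.11, 95% interval -0.66 to -0.22) with p = 0.00015 and adjusted p = 0.19 by the edgeR test of the authors' deposited table. The KLF4 site under the other Tns1 peak had -0.05 (standard error 0.20). A site near Grap, an adaptor protein gene, had -0.48 (-0.74 to -0.23) with an adjusted p of 0.29 from edgeR in the authors' deposited table. These did not pass the threshold.

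The other 6 of the 8 smallest p-values had adjusted p of 0.52 to 0.56 in the authors' deposited edgeR table. They were at 1700011L22Rik (-0.99), Rps24 (-0.28), Phldb1 (-0.66), Susd3 (0.42), Arhgap5 (-0.46) and the kinase gene Pim3 (0.33), as log2 fold changes. Among the 38 sites nearest to list genes, 5 had an unadjusted p under 0.05, at Smad6 (log2 fold change -0.29), Sp3 (0.24), Axin2 (0.22), Zbtb16 (0.67) and Tns1, against 6.46% of all sites of the authors' deposited table. At Pth1r the value was 0.16 (standard error 0.16), at Klf4 -0.12 (0.26) and at Mir34a -0.18 (0.12), within 2 standard errors of 0 in each case.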

How the data were processed

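CUT&Tag peak tables were analysed as deposited, on the build mm39. Tools named in the submitters' processing notes, without their roles, include the peak caller MACS3 3.0.2, the annotator HOMER 4.11.1, the aligner Bowtie2 2.5.4 and DiffBind 3.16.0, and, for the authors' deposited comparison, edgeR 4.2.0. Peak score, distance to the TSS, annotation and gene name are the authors' values, per the file headers. Per the file names, PLAGL1 peaks were called against IgG and the authors compared KLF4 with edgeR. The deposited KLF4 table gives for each consensus site the log2 fold change, the log2 CPM averaged over libraries, F as a score, and the p-value before and after adjustment. It holds no values per library, so no counts were refitted, and depth per library is unknown. The use of a control for H3K4me3 and the handling of duplicates, multiple matches and scaling are not given in the sources used here.

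Overlaps (at least 1 bp), medians with 95% intervals from order statistics and Wilson intervals were computed in Python 3.11.15 (scipy 1.17.1, numpy 2.4.6, pandas 2.3.3), with plots by matplotlib 3.10.9. A standard error was approximated as the absolute log2 fold change over the square root of F. Its interval used the degrees of freedom implied by F and p, or their median of 87.6 where F was under 0.5. The code was tested on simulated data. Classes follow the detailed annotation, where CpG islands and repeats take precedence over introns and intergenic stretches. The files have 0 columns of further samples. Of the 734 gene names, 98.0% were found in a RefSeq table of GRCm38.p6, used for names only.

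Named genes are those of the 12 highest H3K4me3 scores, the 10 highest KLF4 signals, the 8 smallest p-values, the 6 widest peaks, the genes with most peaks (9 tied at 3) and all list genes. MicroRNA peaks were described after their values were seen. The peaks and lists were chosen with earlier results of these data known, so the low KLF4 share at craniofacial genes is not an independent finding. The KLF4 share at the promoters of these genes is not given here. No chance test was run.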

Additional observations from a re-analysis of the deposited data

Results flagged for a closer look

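On chrX, chrY and unplaced contigs, which the choice of peaks left out, 18 further distal H3K4me3 peaks overlapped KLF4 and not PLAGL1, 17 of them on chrX and 1 on chrY. They were taken up because they are data outside the comparisons above. Their scores ran from 39 to 749 with a median of 167. They held 19 KLF4 sites, of which 1 had an adjusted p under 0.05 by edgeR in the authors' deposited table, with log2 fold changes from -0.97 to 0.22.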

How the results depend on the processing

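Of 119 recomputed values, 96 were counted as unchanged, 23 moved and 0 changed sign. Medians and shares were judged by the interval of the reported value, and counts by 1.5 times the reported count. The 96 also include log2 fold changes of the single sites with the smallest p-values, which were not judged by an interval. Adjusting again cannot alter a fold change, and subtracting the median of all sites shifts every site equally and slightly. The count of called sites could only be 0 under settings that keep a part of the same 806 sites. Entries of both kinds are therefore no check of stability, and the 96 overstates it. The number of distal peaks with KLF4 was 525 beyond 20 kb, 179 beyond 50 kb and 87 in the upper 50% of all H3K4me3 scores. Their share of distal peaks was 29.6% beyond 50 kb, 26.9% where 50% of the KLF4 site had to be covered, 42.6% with PLAGL1 overlap allowed and 66.4% in the upper 50% of scores. The median width was 622 bp beyond 20 kb, 685 bp beyond 50 kb, 674.5 bp with 50% coverage, 1341 bp in the upper 50% of scores and 505 bp without CpG islands. The median KLF4 signal was 5.07 mean log2 CPM with 50% coverage and 5.33 with PLAGL1 allowed, and the median log2 fold change was -0.043 in the upper 50% of scores. The median score was 117.5 with 50% coverage and 79 without CpG islands. Its excess over distal peaks without KLF4, 22.5 as reported, was 49.5 and 11 under these settings, and the excess in width, 115.5 bp as reported, was 245.5 and 71 bp. The cause of these moves was not tested. Called sites numbered 1 with chrX, chrY and contigs kept and 59 at an unadjusted p under 0.05. Adjusted again over 20801 autosomal sites, the smallest adjusted p, at Tns1, was 0.34. Leaving out CpG islands, or satellite and ribosomal RNA repeats, was chosen after seeing the data.

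No paired analysis was possible because the deposited KLF4 table holds no values per library, and for the same reason fits without each replicate in turn were not run. Depth is unknown for all libraries, and H3K4me3 and PLAGL1 had 1 library each.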
